A study of Mus musculus with 8 samples.

Results

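The genes of 10 transcription factors and cofactors that act in effector and memory T cells were followed across sorted CD8+ T cells from mouse spleen: Eomes, Tbx21, Prdm1, Zeb2, Bhlhe40, Id2, Hopx, Runx3, Irf4 and Irf8. They were chosen by gene symbol with earlier results of these data known, and all 10 were found among the 29426 genes of the count table. All 10 were among the 12313 genes with enough reads to be tested. Zeb2 passed that filter only through the MP libraries in both genotypes, and Bhlhe40 did not pass within the WT TN libraries.

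The 8 RNA-seq libraries fall into 4 groups of 2 by the titles: a genotype label, WT or mCre, and a subset label, TN or MP. Magnetic beads enriched CD8+ cells, and live cells were then sorted by flow cytometry on CD44 and CD122 together with CD8 and CD4. The design text names the subsets TN and VM and the genotypes Cre- and WT, and the series title names miR-29. Which alleles or driver the mCre animals carried, which age (adult or neonatal spleens are both mentioned) and how many animals each library came from: these points are not stated in the labels used here. The labels do not say that replicates came from separate animals, so each p-value measures only the spread between libraries, which may be technical. Library totals ranged from 13479586 to 30057658 counts. Levels are given as CPM (a gene's counts divided by the library total, scaled to a total of 1e+06), and differences as log2 fold changes from edgeR with Benjamini-Hochberg adjustment over all tested genes. A gene is said to have risen or fallen where the adjusted p was under 0.05.

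Eomes and T-bet, the protein of Tbx21, are T-box factors that switch on cytotoxic and cytokine genes, and Eomes also sustains CD122, the interleukin-2 receptor beta chain that memory-like CD8+ T cells need for interleukin-15. Memory-phenotype CD8+ T cells, also called virtual memory cells when they arise without infection, differ from naive cells in high CD44 and CD122. The remaining factors either repress the genes of less differentiated cells (Blimp-1 from Prdm1, Zeb2, Bhlhe40), block or modulate other DNA-binding proteins without binding DNA themselves (Id2, Hopx), hold the CD8 lineage programme (Runx3), or read antigen receptor and interferon signals (Irf4, Irf8).

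Because the series title names miR-29, and because T-bet and Eomes have been described as targets of this microRNA family in helper T cells, its mature sequences are shown with the places in the factor genes that could pair with them. The 3 mature sequences, from RefSeq on GRCm38.p6, share the seed (bases 2 to 8), which is in capitals.
mmu-miR-29a-3p: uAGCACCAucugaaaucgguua
mmu-miR-29b-3p: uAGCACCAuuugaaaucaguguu
mmu-miR-29c-3p: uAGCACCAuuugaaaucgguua

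The complement of the seed is TGGTGCT, and it was searched on the sense strand of the longest annotated 3′ UTR of each gene. It was present once each in Eomes, Tbx21 and Prdm1, 3 of the 10 genes, against 15.44% of 11648 tested genes with an annotated 3′ UTR. The median 3′ UTR length was 1556 bases in the 10 genes and 1155.5 bases in all of them. The longer form TGGTGCTA, with an A after the match, was in 0 of the 10 and in 3.022% of all tested genes. Each match is shown in capitals within 30 bases of the transcript strand, in the 3′ UTR.
Eomes, chr9:118485797-118485826 (GRCm38, plus strand): aataatgtaaattTGGTGCTttggcgttgt
Tbx21, chr11:97098537-97098566 (GRCm38, minus strand): acagtcacgaaccTGGTGCTgcttctgacc
Prdm1, chr10:44438035-44438064 (GRCm38, minus strand): ctcgctatgacttTGGTGCTtgggcaccac

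A match is a description of these letters and not evidence of binding, and mature microRNAs are not analysed here. The match starts at base 798 of the 1120-base Eomes UTR, base 219 of the 701-base Tbx21 UTR and base 1616 of the 2490-base Prdm1 UTR. The edgeR fit of all 4 groups called none of these 3 genes between mCre and WT in either subset, while DESeq2 called Eomes in TN (−0.44, adjusted p 0.00172).

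The first comparison was MP against TN cells. In WT cells 7 of the 10 genes rose in MP and none fell, with Bhlhe40 and Tbx21 changed most, and in mCre cells 6 rose and none fell. Of all genes tested, 16.2% rose in WT and 17% rose in mCre, and 31.7% and 32.5% changed in either direction. Counted only over the genes that passed the filter within the TN libraries, 5 of 8 rose in WT and 5 of 9 in mCre. The median log2 fold change of the 10 genes was 2.34 in WT and 2.78 in mCre, where the medians of all tested genes were −0.0019 and 0.0024. Over the genes that passed within TN it was 1.45 in WT and 2.50 in mCre. The 6 genes that rose in both genotypes were Eomes, Tbx21, Prdm1, Zeb2, Bhlhe40 and Hopx, while Runx3 rose in WT only by the threshold and Id2, Irf4 and Irf8 did not pass it. In bulk RNA, more cells that express a gene and more RNA per cell cannot be told apart.

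**Figure D1:**
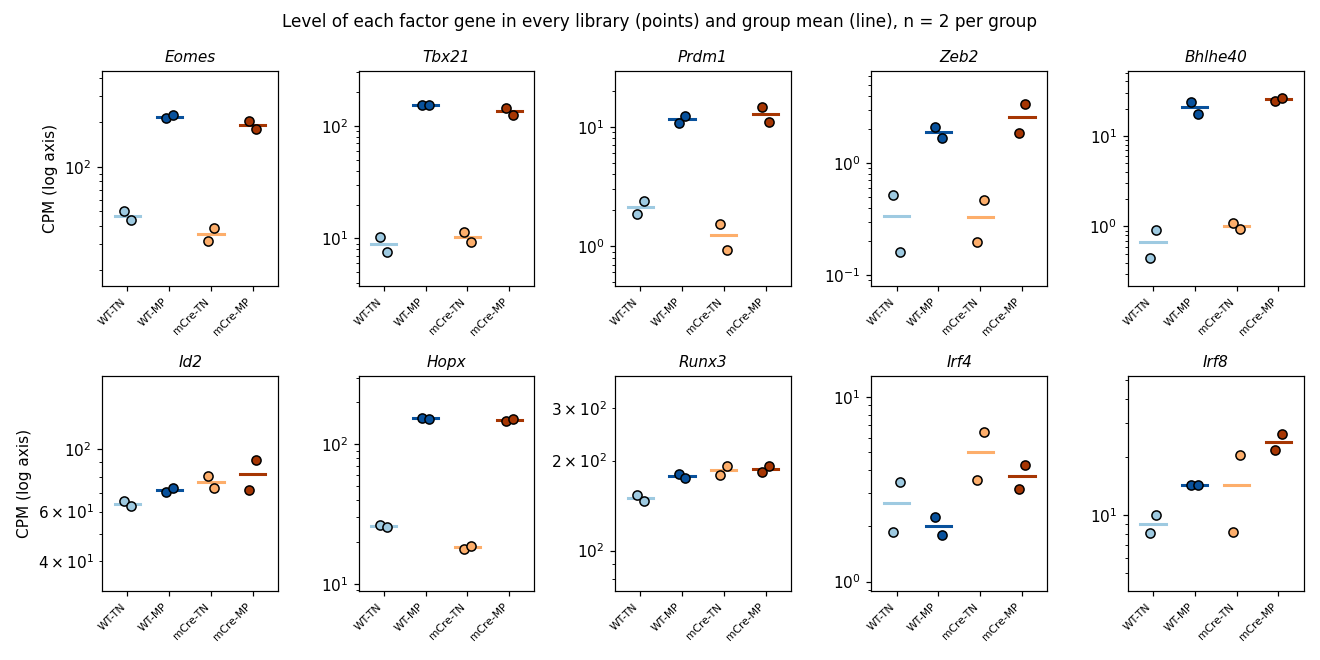
Level of each of the 10 genes in CPM on a log axis with its own range in each panel, by group (WT-TN, WT-MP, mCre-TN, mCre-MP); each point is 1 library and each line is the mean of the 2 libraries of a group. Eomes, Tbx21, Prdm1, Zeb2, Bhlhe40 and Hopx lay higher in every MP library than in any TN library, and the 2 mCre-TN libraries of Irf8 lay apart at 8.18 and 20.5 CPM.

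Eomes (chromosome 9, 118478212 to 118486132, plus strand) was read at 50.1 and 43.3 CPM in WT TN cells, 213 and 224 CPM in WT MP cells, 31.4 and 38.6 CPM in mCre TN cells and 205 and 181 CPM in mCre MP cells. Every MP library lay above every TN library of either genotype. The log2 fold change of MP over TN was 2.24 (SE 0.110, adjusted p 6.91e-07) in WT and 2.50 (SE 0.110, adjusted p 3.24e-07) in mCre. On mean CPM this was 4.67-fold and 5.51-fold.

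Tbx21 (chromosome 11, 97098071 to 97115331, minus strand) was lower than Eomes in TN cells, at 10.4 and 7.64 CPM in WT and 11.5 and 9.22 CPM in mCre. In MP cells it reached 152 and 154 CPM in WT and 143 and 125 CPM in mCre, with no overlap between subsets. Its log2 fold change was 4.13 in WT (SE 0.120, adjusted p 2.26e-10) and 3.70 in mCre (SE 0.110, adjusted p 2.72e-10), or 16.96-fold and 12.9-fold on mean CPM.

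Because the rise of Tbx21 was larger than that of Eomes, the ratio of the 2 was taken per length, in CPM per kb of annotated exon. This ratio was chosen after the values were seen. Tbx21 over Eomes was 0.346 and 0.295 in WT TN cells, 0.613 and 0.399 in mCre TN cells, 1.20 and 1.15 in WT MP cells and 1.17 and 1.16 in mCre MP cells. Per length, Tbx21 was thus the lower of the pair in each TN library and the higher in each MP library. That order in MP rests on the exon lengths used, 2488 bases for Tbx21 and 4155 for Eomes. In CPM, Tbx21 lay below Eomes in each MP library too. The values were 152 and 154 against 213 and 224 CPM in WT, and 143 and 125 against 205 and 181 CPM in mCre. The mean log2 ratio was 1.55 higher in MP than in TN (1.88 in WT and 1.23 in mCre). No test is given, since the values prompted the ratio.

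Among the repressors, Prdm1 (chromosome 10, 44437177 to 44528501, minus strand), whose product Blimp-1 drives terminal differentiation and opposes Bcl6, was low in TN cells at 1.85 and 2.37 CPM in WT and 1.53 and 0.932 CPM in mCre. In MP cells it stood at 10.7 and 12.4 CPM in WT and 14.8 and 10.9 CPM in mCre, above every TN library. The log2 fold change was 2.44 in WT (SE 0.225, adjusted p 7.00e-08) and 3.34 in mCre (SE 0.226, adjusted p 8.21e-10).

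Bhlhe40 (chromosome 6, 108660629 to 108666925, plus strand), a basic helix-loop-helix repressor that supports cytokine production, showed the largest log2 fold change of the 10 genes in both genotypes. It was near the detection filter of 0.486 CPM in TN cells, at 0.445 and 0.915 CPM in WT and 1.10 and 0.932 CPM in mCre. In MP cells it was at 23.7 and 17.7 CPM in WT and 24.4 and 26.3 CPM in mCre. It rose by 4.86 in WT (SE 0.238, adjusted p 7.94e-12) and by 4.65 in mCre (SE 0.200, adjusted p 1.12e-12), about 30.5-fold and 25.0-fold on mean CPM. Its close relative Bhlhe41 had 3 counts over all libraries and was not tested.

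Zeb2 (chromosome 2, 44983632 to 45117395, minus strand), an E-box repressor that acts beside T-bet in terminal effector cells, had the fewest reads of the 10. WT TN libraries held 7 and 3 counts and mCre TN libraries 6 and 9, against 49 and 37 in WT MP and 34 and 82 in mCre MP. No MP library overlapped a TN library in counts or in CPM, where MP stood between 1.69 and 3.34 CPM. The rise was 2.58 in WT (SE 0.545, adjusted p 0.00112) and 3.10 in mCre (SE 0.480, adjusted p 4.86e-05). Its related repressor Zeb1, which is tied to less differentiated memory cells, did not pass the test in either genotype.

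Hopx (chromosome 5, 77086988 to 77115121, minus strand), a homeodomain protein that lacks DNA binding of its own and marks effector and memory T cells, had replicates within 1.05-fold of each other in every group. It was read at 26.6 and 25.7 CPM in the WT TN pair, 154 and 152 CPM in WT MP, 17.9 and 18.8 CPM in mCre TN and 146 and 151 CPM in mCre MP. The subsets did not overlap. The rise was 2.57 in WT (SE 0.0602, adjusted p 8.89e-17) and 3.06 in mCre (SE 0.0601, adjusted p 5.51e-18).

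Id2 (chromosome 12, 25093799 to 25097140, minus strand), which inhibits E proteins and supports effector cells, was already abundant in TN cells. Its levels were 65.6 and 62.6 CPM in the WT TN pair, 70.3 and 72.5 CPM in WT MP, 80.2 and 72.7 CPM in mCre TN and 71.8 and 91.4 CPM in mCre MP. The WT subsets did not overlap and the mCre subsets did. The differences were 0.17 (95% interval −0.054 to 0.40, adjusted p 0.236) in WT and 0.13 (−0.088 to 0.35, adjusted p 0.356) in mCre. The mCre value rested on its MP libraries: it was 0.29 (adjusted p 0.00605) without mCre MP replicate 1 and −0.065 without mCre MP replicate 2. In WT the adjusted p was 0.0310 and 0.0397 in these fits, although neither library enters the WT means.

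Runx3 (chromosome 4, 135120652 to 135177990, plus strand), which silences Cd4 and holds the cytotoxic programme in CD8 cells, was high throughout. It stood at 153 and 147 CPM in the WT TN pair, 180 and 175 CPM in WT MP, 180 and 192 CPM in mCre TN and 184 and 191 CPM in mCre MP. The WT TN libraries were the lowest of the 8 and the only pair apart from the rest. Runx3 rose in MP by 0.26 in WT (SE 0.0539, adjusted p 0.000973), a 1.18-fold change, and differed by 0.047 in mCre (95% interval −0.064 to 0.16, adjusted p 0.540).

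Of the interferon regulatory factors, Irf4 (chromosome 13, 30749226 to 30766976, plus strand), which rises with antigen receptor signal strength, was at 1.85 and 3.44 CPM in the WT TN pair, 2.22 and 1.78 CPM in WT MP, 3.56 and 6.48 CPM in mCre TN and 3.16 and 4.27 CPM in mCre MP. The subsets overlapped within each genotype. The MP over TN values were −0.42 in WT (95% interval −1.20 to 0.35, adjusted p 0.422) and −0.36 in mCre (−1.01 to 0.30, adjusted p 0.414).

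Irf8 (chromosome 8, 120736358 to 120756694, plus strand), known in effector CD8 cells and as a lineage factor of dendritic and B cells, was at 8.09 and 9.95 CPM in the WT TN libraries and at 14.3 CPM in each WT MP library. In mCre it was at 8.18 and 20.5 CPM in TN and 21.8 and 26.3 CPM in MP. MP libraries lay above TN libraries within each genotype, and mCre TN replicate 2 lay closer to the mCre MP libraries than to its own replicate. The values were 0.66 in WT (SE 0.518, adjusted p 0.424) and 0.83 in mCre (SE 0.456, adjusted p 0.258). Without mCre TN replicate 1 the WT value was 0.67, and without mCre TN replicate 2 the values were 0.68 in WT and 1.60 in mCre. In the edgeR fit of only the WT libraries the adjusted p was 0.00169.

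**Figure D2:**
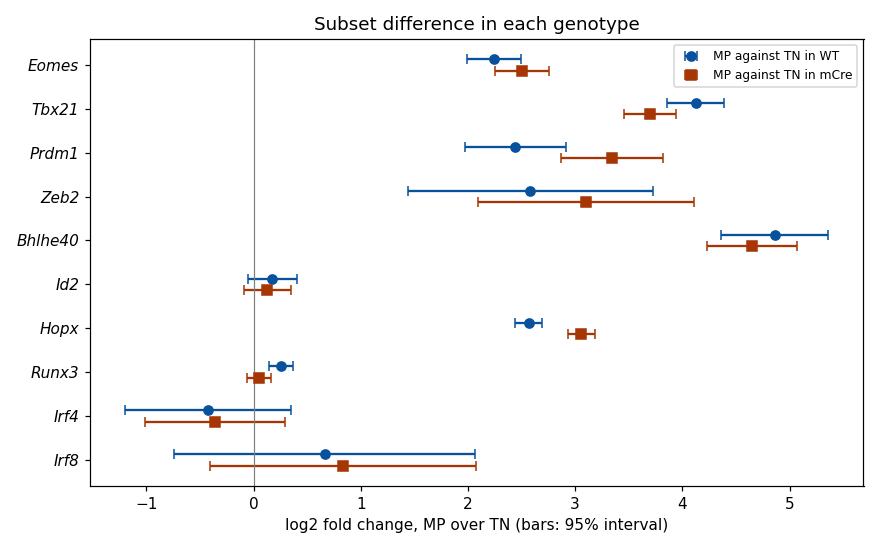
Log2 fold change of MP over TN (x axis) for each of the 10 genes (y axis) in WT (circles) and mCre (squares); bars are 95% intervals from edgeR. Bhlhe40 and Tbx21 lie farthest to the right at 4.86 and 4.13 in WT, and Id2, Runx3, Irf4 and Irf8 lie within 1 unit of 0 in both genotypes.

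Scaled by exon length, the order of the genes differed between the subsets. In WT TN cells the mean level per kb was highest for Runx3 (29.99 CPM per kb), followed by Id2 (26.3), Hopx (17.2), Eomes (11.2), Tbx21 (3.62) and Irf8 (1.28). Irf4 (0.540) and Prdm1 (0.378) overlapped each other there, and Bhlhe40 (0.145) and Zeb2 (0.0171) were the lowest. In WT MP cells Hopx led at 101 CPM per kb, then Tbx21 (61.4), Eomes (52.5), Runx3 (35.5) and Id2 (29.3). Bhlhe40 followed at 4.40, Prdm1 (2.07) and Irf8 (2.02) overlapped, and Irf4 (0.409) and Zeb2 (0.0949) came last. In mCre the 5 highest genes stood in the same order as in WT within each subset, with Runx3 (37.5) and Id2 (33.5) overlapping in MP. The lower ranks in mCre TN were Irf8 (2.03) and Irf4 (1.02), whose libraries overlapped, then Prdm1 (0.221) and Bhlhe40 (0.216), which also overlapped, and Zeb2 (0.0167). In mCre MP the lower ranks were Bhlhe40 (5.38), Irf8 (3.41), Prdm1 (2.30), Irf4 (0.758) and Zeb2 (0.130).

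**Figure D3:**
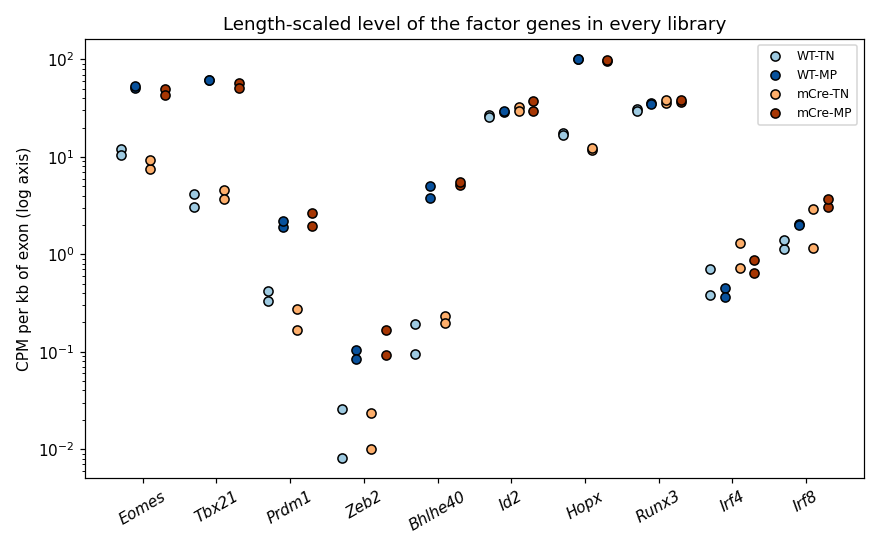
Level of each gene per length in CPM per kb of annotated exon (y axis, log scale), with 1 point per library and colours for the 4 groups. Runx3 and Id2 keep similar levels in all groups, and Hopx, Tbx21 and Eomes pass above Runx3 (35.5 in WT MP) only in MP libraries.

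The genes that the literature sets beside these factors moved in both directions. Of 27 counterparts and partners, 25 were tested, and in MP against TN 6 rose and 5 fell in WT while 6 rose and 8 fell in mCre, with medians of 0.057 and 0.010. Of all tested genes, 16.2% rose and 15.6% fell in WT, and 17% rose and 15.5% fell in mCre. Runx2, the paralog of Runx3, rose by 3.32 in WT (from a mean of 7.79 to 75.7 CPM) and by 3.03 in mCre (11.3 to 90.0 CPM), beside 0.26 and 0.047 for Runx3. Runx1 and Cbfb, the partner subunit of all Runx proteins, did not pass the test.

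Of the E proteins that Id2 inhibits, Tcf4 fell in MP by 1.95 in WT and by 2.63 in mCre, while Tcf12 rose by 0.40 and 0.28. Id3, the naive-biased relative of Id2, rose by 0.59 in WT and stood at 0.025 in mCre without passing the test. Bach2, Lef1, Foxo1 and Tcf7, which maintain naive or stem-like cells, fell in MP in both genotypes. The values in WT and mCre were −0.66 and −0.57 for Bach2, −0.90 and −0.74 for Lef1, −0.40 and −0.32 for Foxo1, and −0.24 and −0.36 for Tcf7. Bcl6, the repressor opposed by Blimp-1, fell by 0.65 in mCre and stood at −0.12 in WT without passing the test (adjusted p 0.550). Myb rose by 1.93 in WT and 1.70 in mCre, and Nfil3 by 1.78 and 2.38.

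Genes known as targets of T-bet and Eomes were listed with earlier results of these data known, so counts over the list are descriptions. All 14 listed targets rose in WT MP cells and 13 of 14 in mCre MP cells, but 8 of them in WT and 7 in mCre passed the filter only through the MP libraries. Of all tested genes, 16.2% rose in WT and 17% in mCre. Of the targets that passed within TN, 6 of 6 rose in WT and 6 of 7 in mCre. Cxcr3, a chemokine receptor, went from a mean of 18.6 to 284 CPM in WT and from 13.3 to 270 CPM in mCre, and the killing genes Prf1 and Nkg7 rose by 0.98 and 0.60 in WT and by 1.24 and 0.68 in mCre. Il2rb, the CD122 gene, rose by 2.79 and 2.72, but CD122 staining was part of the sort. Il12rb2, the interleukin-12 receptor chain, rose by 1.91 in WT and differed by 0.28 in mCre. That difference of differences was −1.64 (adjusted p 0.0252).

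The second comparison was mCre against WT within each subset. In TN cells Runx3 rose and Hopx fell, 2 of the 10 genes, where 3.47% of all tested genes changed. In MP cells edgeR called 0 of the 10 genes, where 4.04% of all tested genes changed. An unadjusted p under 0.05 was seen for 6 of the 10 in TN and 3 in MP. The share of all tested genes under that unadjusted threshold was not taken. The 3.47% and 4.04% are shares after adjustment, so these counts cannot be set against them. DESeq2 called 3 in TN and 0 in MP, of 364 and 383 genes, and limma voom 2 and 0, of 385 and 548. With no low-count filter edgeR called 5 and 4, of 783 and 888 genes. Fits of only the groups compared called 4 and 1, of 441 and 678. In the main fit the median log2 fold change of the 10 was 0.24 in TN and 0.17 in MP. These comparisons use the same libraries as the comparison of subsets, so their values are given side by side and no relation between them is drawn.

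Hopx was lower in both mCre TN libraries (17.9 and 18.8 CPM) than in both WT TN libraries (26.6 and 25.7 CPM). Its log2 fold change was −0.53 (SE 0.0705, adjusted p 0.000187), 0.700 of the WT mean, and stayed called under each of 16 alternative settings, with adjusted p up to 0.00555. In MP cells the value was −0.040 (95% interval −0.15 to 0.065, adjusted p 0.752).

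The subset effect on Hopx was 0.49 larger in mCre than in WT (SE 0.0864, adjusted p 0.0252), and Hopx was the only 1 of the 10 genes called in this test, which called 0.13% of all genes. Limma voom gave an adjusted p of 0.0914. Leaving out a library also ended the call in 6 of 8 cases: 0.0620 and 0.0739 without WT TN replicate 1 or 2, 0.0846 and 0.102 without WT MP replicate 1 or 2, 0.176 without mCre TN replicate 1 and 0.101 without mCre MP replicate 2. The value itself stayed between 0.44 and 0.52 over these.

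Runx3 was higher in both mCre TN libraries (180 and 192 CPM) than in both WT TN libraries (153 and 147 CPM). It rose by 0.29 (SE 0.0538, adjusted p 0.00355), 1.24-fold, and the call was lost without WT TN replicate 2 (0.26, adjusted p 0.0546) or mCre TN replicate 2 (0.24, adjusted p 0.0628). In MP cells it differed by 0.082 (95% interval −0.029 to 0.19, adjusted p 0.470). The difference between subsets, −0.21, was not called (unadjusted p 0.0115, adjusted p 0.693). Runx2 rose in mCre in both subsets, by 0.54 in TN (adjusted p 0.0118) and 0.25 in MP (adjusted p 0.0423).

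Eomes lay below WT in each mCre library of the same subset, without passing the test. The values were −0.44 in TN (95% interval −0.71 to −0.16, adjusted p 0.100) and −0.18 in MP (−0.40 to 0.046, adjusted p 0.410). In TN the call was gained without mCre TN replicate 2 (−0.59, adjusted p 0.00382), mCre MP replicate 1 (−0.44, adjusted p 0.0457) or mCre MP replicate 2 (−0.43, adjusted p 0.0492). DESeq2 gave 0.00172, and the fit of only the TN libraries gave 0.0241.

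Tbx21 differed by 0.24 in TN (95% interval −0.11 to 0.59, adjusted p 0.490), where libraries overlapped, and by −0.19 in MP (−0.38 to −0.00067, adjusted p 0.287), where mCre lay below WT. Prdm1 was lower in both mCre TN libraries, at −0.75 (95% interval −1.37 to −0.14, adjusted p 0.183), and overlapped WT in MP at 0.15 (−0.22 to 0.51). The difference of the subset effect was −0.43 for Tbx21 (adjusted p 0.816) and 0.90 for Prdm1 (adjusted p 0.708). Thus the 3 genes with a TGGTGCT match had values of −0.44, 0.24 and −0.75 in TN and −0.18, −0.19 and 0.15 in MP in the edgeR fit of all 4 groups, which called none of them. With no low-count filter, edgeR called Eomes in TN (adjusted p 2.92e-08) and MP (0.0261) and Tbx21 in MP (0.0205).

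Bhlhe40 was above WT in each mCre library of the same subset, by 0.51 in TN (95% interval −0.29 to 1.31, adjusted p 0.543) and 0.29 in MP (0.0085 to 0.58, adjusted p 0.273). For Zeb2, with 3 to 9 counts in each TN library, the intervals ran from −1.54 to 1.46 in TN and from −0.30 to 1.25 in MP. Neither comparison of Zeb2 passed the test, and its mCre MP libraries held 34 and 82 counts.

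With the subsets combined and subset as a covariate, Irf4, Id2 and Runx3 rose in mCre, 3 of the 10 genes, where 11% of all tested genes changed in either direction. The median of the 10 was 0.20. Irf4 rose by 0.87 (SE 0.223, adjusted p 0.0174), 1.88-fold on mean CPM, with 0.84 in TN and 0.90 in MP, neither called alone. Within each subset both mCre libraries lay above both WT libraries. Its call was lost without WT TN replicate 1 (adjusted p 0.0531), WT MP replicate 2 (0.0732), mCre TN replicate 2 (0.0763) or mCre MP replicate 2 (0.0608), and in TN alone it was gained without mCre TN replicate 1 (1.24, adjusted p 0.0496).

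Id2 rose by 0.22 in the combined comparison (SE 0.0652, adjusted p 0.0481), from 0.25 in TN and 0.20 in MP. The adjusted p was 0.0525 with limma voom and between 0.0691 and 0.169 in the 7 fits without a library that lost the call. The exception was mCre MP replicate 1, without which Id2 also passed in TN (adjusted p 0.0317) and in MP (0.35, adjusted p 0.00956). Without mCre MP replicate 2 it passed in TN (adjusted p 0.0328). Runx3 rose by 0.19 (SE 0.0438, adjusted p 0.00857), and lost the call without mCre TN replicate 2 (0.14, adjusted p 0.0531).

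Other values of the combined comparison were −0.28 for Eomes (adjusted p 0.112) and 0.32 for Bhlhe40 (adjusted p 0.114). Eomes passed without mCre TN replicate 1 (−0.21, adjusted p 0.0205) or mCre MP replicate 1 (−0.36, adjusted p 0.0174), and Bhlhe40 passed without WT MP replicate 1 (0.52, adjusted p 0.0317). DESeq2 also called Eomes (adjusted p 0.00102), as did edgeR with no low-count filter (adjusted p 2.43e-07). Hopx stood at −0.21 (adjusted p 0.202) in the main fit. It was called by DESeq2 (adjusted p 0.0242) and by edgeR with no low-count filter (adjusted p 0.000308).

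The TN value of Irf8 rested on which mCre TN library was kept, while its MP value hardly moved. Irf8 was at 0.59 in TN (95% interval −0.82 to 2.00, adjusted p 0.660), 0.76 in MP (−0.47 to 1.99, adjusted p 0.508) and 0.69 combined (adjusted p 0.258). Both mCre MP libraries lay above both WT MP libraries. Without mCre TN replicate 1 the values were 1.16 in TN, 0.76 in MP and 0.91 combined. Without mCre TN replicate 2 the TN value was −0.17 and the MP value was 0.75. The edgeR fit of the MP libraries alone gave an adjusted p of 0.000563.

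Of the other interferon regulatory factors, Irf9 rose in mCre by 0.31 in TN (adjusted p 0.0142) and 0.46 in MP (adjusted p 0.000428), and Irf7 by 0.84 in MP (adjusted p 0.0425). Irf7 means were 51.6 CPM in WT TN, 67.6 CPM in WT MP, 88.4 CPM in mCre TN and 121 CPM in mCre MP. Among the 14 target genes, Cxcr3 fell by 0.49 and Il12rb2 rose by 0.94 in mCre TN cells. In MP cells Cx3cr1 rose from a mean of 8.43 to 23.7 CPM, while Xcl1 fell by 0.78 and Il12rb2 by 0.69.

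**Figure D4:**
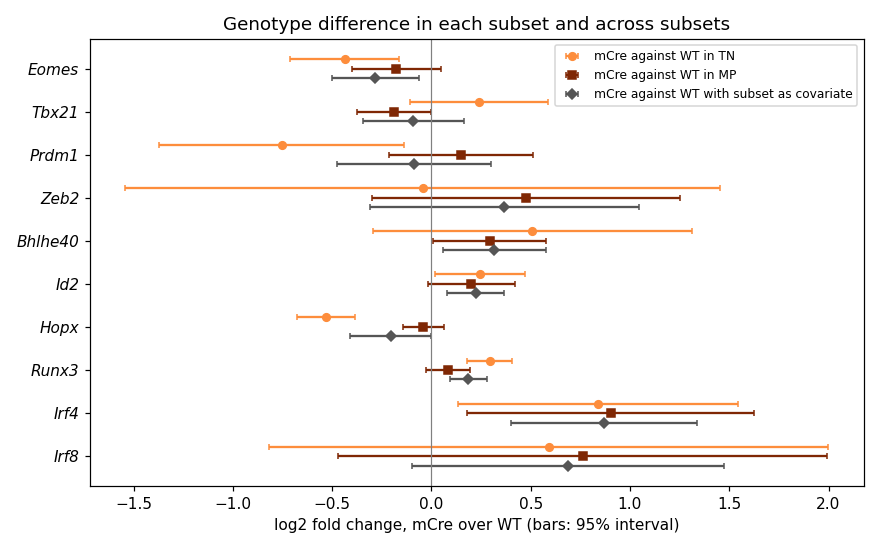
Log2 fold change of mCre over WT (x axis) for each of the 10 genes (y axis) in TN (circles), in MP (squares) and with subset as a covariate (diamonds); bars are 95% intervals from edgeR. The TN intervals of Hopx at −0.53, Runx3 at 0.29, Eomes, Prdm1, Id2 and Irf4 do not reach 0. Of these, only Hopx and Runx3 were called in TN after adjustment over all tested genes. Irf4 lies to the right of 0 at 0.84, 0.90 and 0.87.

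Several of the 10 genes are also expressed by other cells of the spleen, so marker levels were set beside them. Summed T cell markers stood between 7262 and 7974 CPM in all libraries. The 9 tested natural killer cell markers, of which Eomes is 1, all rose in MP in both genotypes. Without Eomes their sum was 27.9 to 32.8 CPM in TN, 98.6 to 100 CPM in WT MP and 67.7 to 79.0 CPM in mCre MP. Most of that sum was Cd160 in each group. Its means were 25.7 CPM in WT TN, 27.8 in mCre TN, 67.2 in WT MP and 49.7 in mCre MP. Ncr1 and Klrb1c, both in this marker list, had 0 counts in every TN library. In the MP libraries they held 3 to 15 and 35 to 60 counts. The part of natural killer cells in the rise of Eomes, Tbx21, Prdm1, Zeb2 and Hopx was not tested.

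For Irf8 and Irf4, the markers were those of dendritic, B and plasma cells. The 10 dendritic cell genes summed to 43.8 to 54.8 CPM in WT TN, 92.3 to 98.9 in WT MP, 62.4 to 63.7 in mCre TN and 114 to 123 in mCre MP. Most of that sum was Itgax and Bst2, which activated T cells also express. B cell markers stayed between 17.7 and 22.7 CPM and plasma cell markers between 0.519 and 2.37 CPM in all groups. Irf8 differed 2.50-fold between the 2 mCre TN libraries, whose dendritic sums were 63.7 and 62.4 CPM. Macrophage and monocyte markers ran the other way: 6 of 9 fell in mCre in the combined comparison. Of all tested genes, 11% changed in either direction there. Within the subsets 3 of 9 fell in TN and 1 of 9 in MP, where 3.47% and 4.04% of all tested genes changed. The part of any of these cells in the values of Irf4 and Irf8 was not tested.

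For each of the 10 genes, the most similar other genes were taken as those with the smallest root mean square difference in centred log2 CPM over the 8 libraries. Eomes was nearest to Slc9a7 (0.16) and Mapre2 (0.17), and Tbx21 to Cxcr5 (0.16) and Klrk1 (0.21). Hopx and Prdm1 shared the same neighbours, Ifitm10 (0.13 and 0.27) and Nrarp (0.15 and 0.30). Bhlhe40 was nearest to Ttc39c (0.22) and Fcgr2b (0.28), and Zeb2 to Rnf39 (0.23) and Ctla4 (0.34). Irf4 was nearest to the interferon-induced Gbp6 (0.15) and Gbp2 (0.19), and Irf8 to Gvin1 (0.22) and E2f2 (0.26). Id2 (Eid2 and Rab27a, 0.069 and 0.075) and Runx3 (Zfp729a and Dera, 0.045 and 0.052) varied so little that small distances are easily reached. These distances describe 8 libraries in 4 groups and share the subset difference.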

How the data were processed

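RNA-seq of sorted mouse spleen CD8+ T cells gave 8 libraries in 4 groups of 2. The authors deposited unnormalized read counts, 1 row per gene symbol. Trim Galore, HISAT2, featureCounts and mm10 are named by the submitters' processing notes, and per the labels' protocols the kit was strand-preserving. Their versions, gene annotation, strand setting and handling of multiply mapped reads are not given in those notes. For 6 of the 10 genes (Eomes, Zeb2, Bhlhe40, Hopx, Runx3, Irf8) the annotation holds an overlapping gene, mostly antisense, with no row of its own in the count table, so its reads may be included.

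The test was edgeR 4.0.16 (R 4.3.3) quasi-likelihood on the counts, with TMM scaling, 1 fit over 4 groups, a filter of 0.486 CPM in at least 2 libraries and Benjamini-Hochberg adjustment over 12313 genes. The combined comparison used genotype with subset as a covariate. CPM printed are counts scaled to a library total of 1e+06, and each value has 2 replicates per group. Replicates differed more than sampling noise (chi-square per degree of freedom 4.13 to 6.12). Scripts were tested on simulated data. The 10 genes and the lists were chosen with earlier results of these data known, and all 10 are named by rule. Alternatives were DESeq2 1.42.0, limma 3.58.1 voom, other scaling and filters, only the groups compared, the replicate block, and leaving out each library. Exon lengths, coordinates and 3′ UTRs came from GENCODE M21 (GRCm38).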

Additional observations from a re-analysis of the deposited data

Results flagged for a closer look

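Hopx differed between the genotypes in its subset effect: the log2 fold change of MP over TN was 2.57 in WT and 3.06 in mCre, and the difference of 0.49 (SE 0.0864) passed the edgeR interaction test with an adjusted p of 0.0252. The call was lost with limma voom (adjusted p 0.0914) and in 6 of the 8 fits that left out a library (adjusted p 0.0620 to 0.176).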

How the results depend on the processing

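The 7 WT and 6 mCre calls of MP against TN, and Hopx in mCre against WT TN, held under each of 16 alternatives. Genotype counts moved; the cause was not tested. The interaction called 26 genes with DESeq2, 7 with limma voom (0 of the 10 factor genes) and 81 with no low-count filter. That setting also called 783 genes (5 factor genes) in TN, 888 (4) in MP and 5 factor genes combined. DESeq2 called 5 combined, and limma voom gave 0.017 for Prdm1. Fitting only the groups compared called 4 in TN and 1 in MP. The replicate block, whose same-numbered libraries correlated between −0.045 and 0.11 and were not taken as pairs, called 7 and 6 factor genes by subset in WT and mCre, and 2, 0, 1 and 2 in TN, MP, the interaction and combined, of 4036, 4145, 548, 617, 18 and 1446 genes; it lost Id2 combined (adjusted p 0.0572) and turned the uncalled Irf4 interaction to −0.011.

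Leaving out 1 library gave 1 to 4 factor genes and 204 (without mCre TN replicate 2; 207 without WT TN replicate 2) to 446 genes in TN. In MP it gave 0 to 1 and 195 (without WT MP replicate 2) to 593 genes, with 264 without WT MP replicate 1 and 308 and 254 without mCre MP replicates 1 and 2. The interaction gave 0 to 1 and 9 (without WT MP replicate 1 or WT TN replicate 2; 10 without WT MP replicate 2) to 32 genes (without mCre MP replicate 1). The combined comparison gave 0 to 4 and 855 (without WT MP replicate 2) to 1198 genes.

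Values that changed sign were uncalled in the full fit. By subset they ranged, for Irf4, from −0.75 to 0.14 in WT and −0.76 to 0.11 in mCre, and in mCre from −0.065 to 0.29 for Id2 and −0.0035 to 0.10 for Runx3. By genotype, TN values ran from −0.75 to 0.90 for Zeb2 and −0.17 to 1.16 for Irf8, and MP values from −0.088 to 0.35 for Prdm1 and −0.037 to 0.81 for Zeb2. The interaction ran from −0.43 to 1.23 for Zeb2, −0.89 to 0.13 for Bhlhe40, −0.24 to 0.10 for Id2, −0.49 to 0.52 for Irf4 and −0.40 to 0.92 for Irf8. Combined values ran from −0.16 to 0.0075 for Tbx21, −0.33 to 0.042 for Prdm1 and −0.038 to 0.57 for Zeb2. A group left with 1 library is assumed to vary like the others. Zeb2 had the lowest depth, with 3 to 9 counts in each TN library; the part of depth in its wide intervals was not tested.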
